A study of Gallus gallus with 16 samples.

Results

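The genes described here copy the chicken genome and then divide it: 65 genes of DNA replication and mitosis, out of 11528 genes that the array names with 1 symbol. They were picked by a rule on the symbol, which was set with earlier results of these data known. The rule takes the MCM, GINS, ORC, RFC, CENP, condensin (NCAP, SMC2, SMC4), DNA polymerase and cyclin A, B and E families. It also takes the CDC, BUB1, AURK and PLK genes of the cell cycle, and CDK1, TOP2A and ESCO2. Each gene was read from 1 of the 70 features that carry these symbols, the one with the highest mean over all arrays. By role, 28 belong to replication and 33 to mitosis, while the spelling of 4 more (AURKAIP1, CDC73, MCM3AP and MCM9) matches although they sit in neither class. PCNA, MCM7, CDC6 and CCNA2 were not analysed here.

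The livers came from 16 male broilers, meat-type Gallus gallus, sampled at day 21. They had been fed diet A, E, F or H, with 4 birds per diet and 1 array per bird. The series title names an essential oil blend and saponins as feed additives, and the labels used here do not tell which letter received which. All groups share sex, age and tissue, and the birds of a diet are called replicates 1 to 4 as names only. Each array gave log2 signals, on which a difference of 1 is a 2-fold difference in signal.

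Dividing cells run through these genes in order. The origin recognition complex (ORC1 to ORC6) marks the places where copying starts and loads the ring of MCM proteins, CDC45 and the GINS proteins switch that ring on as a helicase, and polymerases held by a sliding clamp then copy the strands. In mitosis CDK1 with cyclin B drives entry, condensin and topoisomerase II fold and untangle the chromosomes, and kinetochores built on the centromere hold them to the spindle. Most hepatocytes of a grown liver rest outside the cycle, while a liver in a fast-growing young animal still holds dividing cells.

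Array medians lay between 6.11 and 6.21, and 4 birds per diet limit the precision. A difference between diets had a median standard error of 0.216 over all features. It was larger for the genes described here, at 0.252 for the replication and 0.429 for the mitosis genes. All 19 measured hepatocyte markers had means above 4.31, the 20th percentile of all values, which served as the mark for dim features. Of the 65 genes, 63 had means above that mark, and CCNA1 and CENPJ lay under it. The arrays of diet H replicates 3 and 4 differ from the rest in having the highest ribosomal protein gene medians. They also have low signals of several long genes, such as CDC73 (7.78 and 7.61), and other birds shared this in part. The long gene POLA1 read 5.33 in diet E replicate 1 and 5.61 in diet F replicate 4, both below diet H replicate 3 (5.92). The class medians of the comparisons with diet H, and several of its gene differences, are also given without diet H replicates 3 and 4. Ranges, SDs, counts of overlap and flagged birds rest on all birds. In whole liver, more dividing cells and more RNA per dividing cell cannot be told apart.

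These genes differed more from bird to bird than genes at large. They were chosen with earlier results of these data known, so this width is a description and not a test. The SD over the 16 birds had a median of 0.35 for the replication genes and 0.65 for the mitosis genes on the log2 scale, against 0.29 for all genes. An SD above the 90th percentile of all genes was reached by 13 of 28 replication genes (46.4%) and 21 of 33 mitosis genes (63.6%). Within replication the width differed by step: the median SD was 0.53 in origin licensing, 0.50 in helicase activation and 0.25 among the polymerases and clamp loaders. Within mitosis it was 0.77 for kinases, cyclins and checkpoint genes, 0.82 for condensin and topoisomerase, and 0.48 at the centromere and kinetochore.

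**Figure D1:**
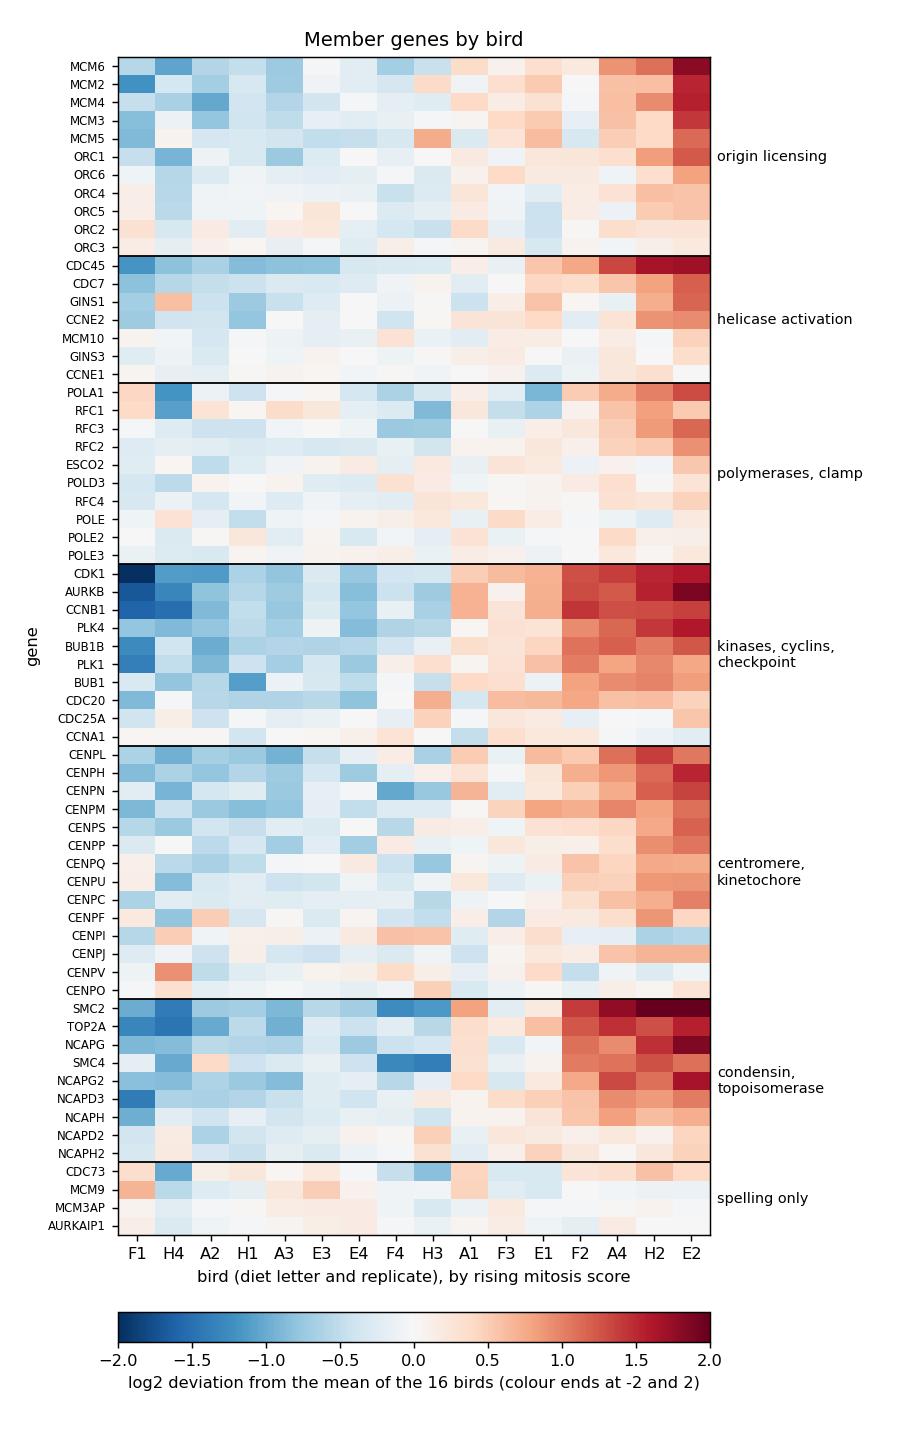
Log2 deviation of each gene from its own mean over 16 birds, with genes in lines ordered by role and birds in columns ordered by mitosis score. The columns of diet E replicate 2, diet H replicate 2, diet A replicate 4 and diet F replicate 2 are high across most mitosis genes, and in diet F replicate 2 the replication genes are less high.

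Origin licensing was led by MCM6 and MCM2, subunits of the helicase ring. MCM6 read 7.62, 6.67, 6.52 and 8.15 in replicates 1 to 4 of diet A, 7.59, 9.05, 7.21 and 7.04 in those of diet E, 6.69, 7.44, 7.33 and 6.57 in those of diet F, and 6.77, 8.35, 6.80 and 6.20 in those of diet H. Diet E replicate 2 was the highest bird and diet H replicate 4 the lowest, a 7.22-fold range, and the birds of every diet overlapped with those of every other. MCM2 read 6.12, 5.50, 5.48 and 6.77 in the birds of diet A, 6.71, 7.71, 6.11 and 5.97 in those of diet E, 4.98, 6.19, 6.51 and 5.85 in those of diet F, and 5.87, 6.78, 6.56 and 5.83 in those of diet H. Again diet E replicate 2 was highest, here with diet F replicate 1 lowest, and the diets overlapped. The other measured ring subunits MCM3, MCM4 and MCM5 had SDs of 0.57, 0.65 and 0.55.

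The recognition complex that loads the ring was quieter. ORC1, the largest ORC subunit, had an SD of 0.53 with values from 4.88 to 7.04, but ORC2 to ORC6 had SDs of 0.16 to 0.33. ORC3 was the narrowest gene of the role, from 5.87 to 6.39. Thus each of the 5 measured MCM ring genes spread more widely over the birds than any of the 6 ORC genes. MCM9, a relative of the ring subunits that acts in recombination repair and not in the ring, ranged from 5.42 to 6.65 with its highest value in diet F replicate 1, the bird lowest for MCM2, MCM3 and MCM5.

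In helicase activation CDC45 spread most of all 28 replication genes. CDC45, which rides with the MCM ring at the fork, read 5.77, 4.98, 4.81 and 6.97 in the birds of diet A, 6.19, 7.33, 4.82 and 5.31 in those of diet E, 4.45, 6.40, 5.48 and 5.34 in those of diet F, and 4.76, 7.28, 5.36 and 4.81 in those of diet H. Its high birds were diet E replicate 2, diet H replicate 2, diet A replicate 4 and diet F replicate 2, so that every diet held 1 high bird and the diets overlapped. CDC7, the kinase that fires loaded origins, read 4.53, 4.26, 4.45 and 5.30 in the birds of diet A, 5.15, 5.94, 4.43 and 4.49 in those of diet E, 3.91, 5.11, 4.73 and 4.67 in those of diet F, and 4.30, 5.54, 4.81 and 4.16 in those of diet H. The highest bird of each diet was the same as for CDC45, and diet E replicate 1 (5.15) stood beside them. CCNE1, a cyclin of the entry into S phase, was the narrowest, with values from 5.99 to 6.59, while its paralogue CCNE2 ranged from 3.56 to 5.29.

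The polymerases and clamp loaders spread less at the median, with an SD of 0.25 against 0.29 for all genes. ESCO2, which acetylates cohesin, is counted in this role too. POLE3, a small subunit of polymerase epsilon, lay between 7.74 and 8.26 in all birds. Still, 3 of the 10 genes in this role (30%) had an SD above the 90th percentile, beside 10% of all genes. POLA1, the catalytic subunit of the primase-polymerase that starts each strand, read 6.37, 6.13, 6.22 and 6.99 in the birds of diet A, 5.33, 7.54, 6.29 and 5.89 in those of diet E, 6.66, 6.75, 6.03 and 5.61 in those of diet F, and 5.82, 7.25, 5.92 and 5.05 in those of diet H. Diet E replicate 2 was high, but diet E replicate 1, above the 16-bird mean in 18 of 28 replication genes, held the second lowest POLA1 value. RFC1, the large subunit of the clamp loader, read 6.97, 7.01, 7.11 and 7.32 in the birds of diet A, 6.13, 7.27, 6.96 and 6.57 in those of diet E, 7.14, 6.82, 6.27 and 6.46 in those of diet F, and 6.78, 7.56, 5.86 and 5.65 in those of diet H. Its 2 lowest birds were replicates 3 and 4 of diet H, whose arrays differ from the rest. RFC2, a small subunit of the same loader, had an SD of 0.37 and followed its class far more closely, as did RFC3 with an SD of 0.51.

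Among the mitotic kinases CDK1 had the largest swing. CDK1, the kinase that starts mitosis, read 8.33, 6.70, 7.04 and 9.21 in the birds of diet A, 8.53, 9.44, 7.54 and 7.07 in those of diet E, 5.68, 9.12, 8.46 and 7.45 in those of diet F, and 7.20, 9.36, 7.48 and 6.72 in those of diet H. Between diet F replicate 1 and diet E replicate 2 this was a 13.5-fold range, and the diets overlapped. AURKB, the kinase of the chromosomal passenger complex, read 6.94, 5.44, 5.54 and 7.48 in the birds of diet A, 6.96, 8.13, 5.90 and 5.41 in those of diet E, 4.55, 7.56, 6.33 and 5.82 in those of diet F, and 5.68, 7.78, 5.54 and 4.94 in those of diet H, an 11.98-fold range. The same bird of each diet was highest as for CDK1, and the diets overlapped. PLK4, which starts centriole duplication, ranged from 4.23 to 6.72 and CCNA1, a cyclin known from germ cells in mouse and human, only from 2.19 to 2.995.

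Condensin and topoisomerase genes spread as widely. SMC2, the core ATPase of both condensins, had the largest SD of all 65 genes (1.26) and read 7.19, 5.65, 5.48 and 8.14 in the birds of diet A, 6.58, 8.63, 5.82 and 5.69 in those of diet E, 5.38, 7.78, 6.17 and 5.11 in those of diet F, and 5.69, 8.52, 5.23 and 4.98 in those of diet H. TOP2A, which untangles sister chromatids, read 7.30, 5.94, 5.98 and 8.41 in the birds of diet A, 7.55, 8.50, 6.69 and 6.52 in those of diet E, 5.64, 8.19, 7.14 and 6.72 in those of diet F, and 6.43, 8.24, 6.40 and 5.49 in those of diet H. For both genes the highest bird of each diet was the same as for CDK1, and the diets overlapped. NCAPG2, a subunit of condensin II, ranged from 3.65 to 6.18, and NCAPH2 of the same complex only from 5.42 to 6.32. SMC4, the partner of SMC2, was lowest in diet H replicate 3 (6.04) and highest in diet H replicate 2 (8.70).

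At the centromere CENPL and CENPH, subunits of the inner kinetochore network, spread most. CENPL read 5.70, 4.52, 4.24 and 6.28 in the birds of diet A, 5.82, 6.24, 4.72 and 5.02 in those of diet E, 4.55, 5.71, 5.06 and 5.34 in those of diet F, and 4.45, 6.58, 4.54 and 4.23 in those of diet H. CENPH read 6.09, 5.03, 5.11 and 6.67 in the birds of diet A, 6.05, 7.33, 5.45 and 5.11 in those of diet E, 4.95, 6.54, 5.77 and 5.61 in those of diet F, and 5.23, 6.95, 5.91 and 5.17 in those of diet H. In both genes the diets overlapped. The 4 high birds of CDC45 were also the highest 4 for CENPH, while for CENPL diet E replicate 1 (5.82) stood above diet F replicate 2. CENPO, of the same network, ranged from 5.33 to 6.11 with its highest value in diet H replicate 3. CENPJ, whose protein serves centrioles and not the centromere, was dim, with values from 2.46 to 3.56. By its symbol it is counted in this role throughout.

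**Figure D2:**
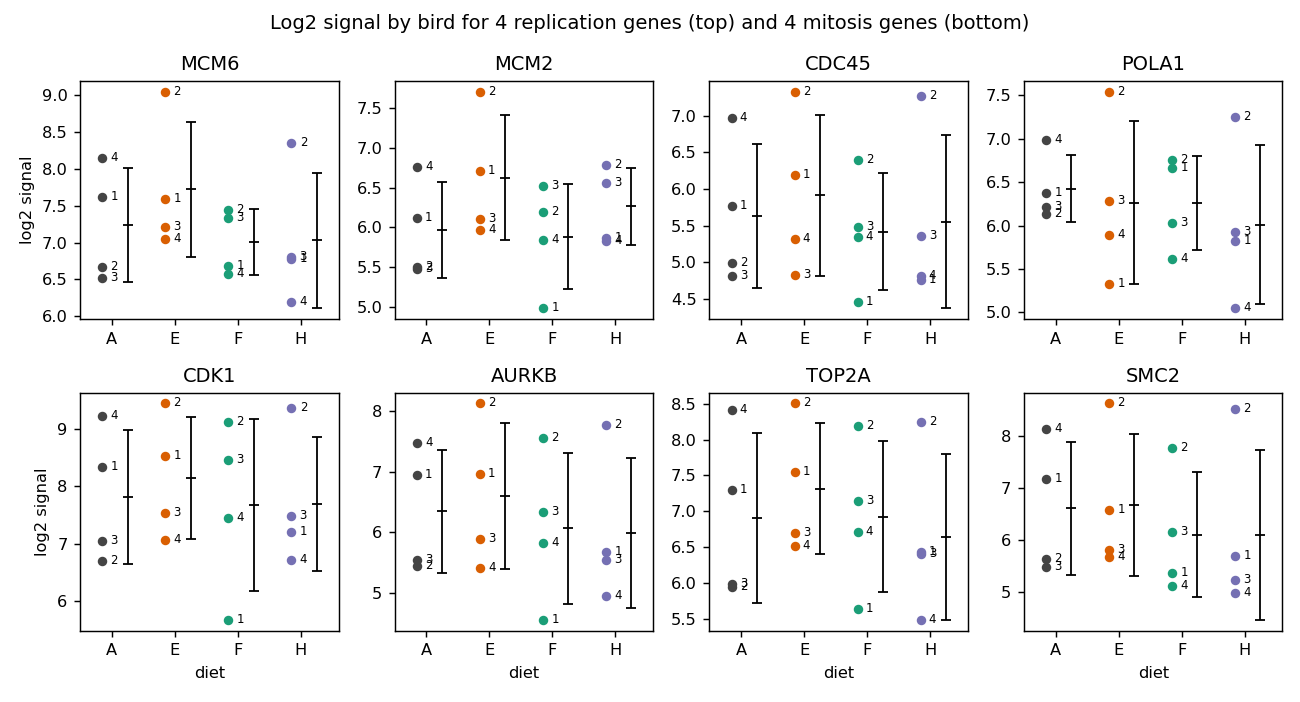
Log2 signal of single genes in each bird, grouped by diet, with digits for the replicate and bars for the mean ± SD of 4 birds. For CDK1 the birds of diet F run from 5.68 to 9.12, so that the spread within a diet exceeds the distance between diet means.

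Each class was then reduced to a score per bird, the median over its genes of the log2 deviation from the mean of 16 birds. The replication score was 0.10, -0.30, -0.13 and 0.33 in replicates 1 to 4 of diet A, 0.14, 0.69, -0.08 and -0.17 in those of diet E, -0.25, 0.03, 0.08 and -0.18 in those of diet F, and -0.26, 0.46, -0.10 and -0.30 in those of diet H. The mitosis score was 0.07, -0.56, -0.45 and 0.79 in the birds of diet A, 0.24, 1.03, -0.27 and -0.20 in those of diet E, -0.63, 0.57, 0.09 and -0.20 in those of diet F, and -0.46, 0.88, -0.19 and -0.62 in those of diet H. The same livers were high or low in both, with Pearson's r = 0.943 and Spearman's rho = 0.926 over 16 birds, given as a description since all genes of a bird share its array. The mitosis score moved 1.81 for each 1.0 of the replication score. The 2 birds farthest from the median replication score were diet E replicate 2 and diet H replicate 2, and r was 0.913 without them.

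The 4 highest mitosis scores came from 1 bird of each diet, and the lowest of these (0.57) stood 0.33 above the next bird (0.24). Among the other 12 birds r was 0.934. With each diet centred on its own mean r was 0.949, and without diet H replicates 3 and 4 it was 0.937. The sample titles carry numbers, and r was 0.938 among the 8 birds with numbers up to 25 and 0.955 among the 8 above it. Diet E replicate 2 held the highest value of 20 of 28 replication and 18 of 33 mitosis genes. At the other end diet F replicate 1 held the lowest value of 12 mitosis and 5 replication genes, and diet H replicate 4 the lowest of 8 and 8.

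**Figure D3:**
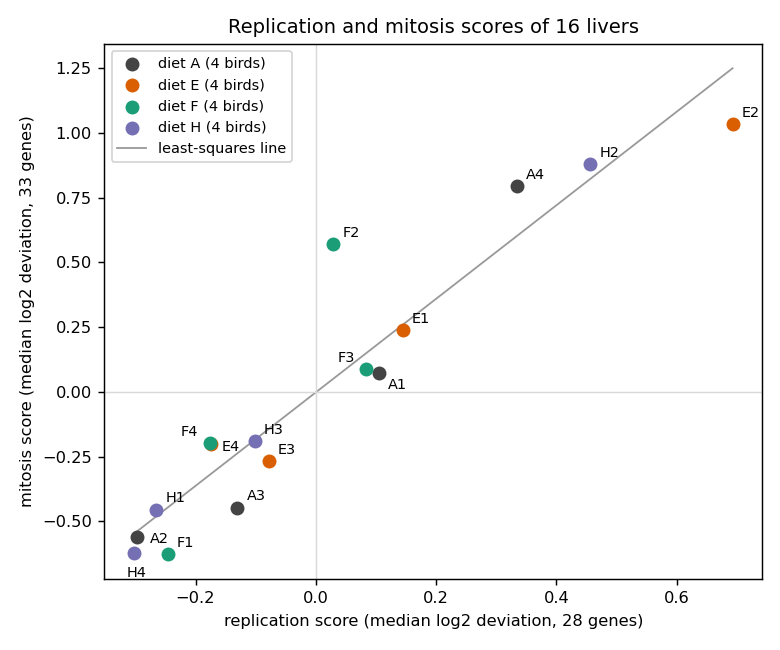
Mitosis score against replication score, both as median log2 deviations, for 16 livers coloured by diet and labelled by diet letter and replicate, with a least-squares line. Diet F replicate 2 (0.03 and 0.57) lies farthest above the line, and 1 bird of each diet makes up the top 4 mitosis scores.

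The bird that left the common line was diet F replicate 2. It ranked 4th of 16 for mitosis and 7th for replication, and its mitosis score lay 0.52 above the line, while the other 15 birds lay between -0.22 and 0.19 of it. In this liver 29 of 33 mitosis genes and 18 of 28 replication genes exceeded their own 16-bird means. Diet E replicate 1 had similar counts (30 of 33 and 18 of 28) but lay at -0.02 of the line, so these counts do not set diet F replicate 2 apart. Scores were also taken from a core of 8 genes per class (MCM2 to MCM6, CDC45, GINS1 and GINS3 against CDK1, CCNB1, CDC20, BUB1, BUB1B, AURKB, PLK1 and TOP2A). There diet F replicate 2 had 1.16 for mitosis (3rd) and -0.02 for replication (8th). Without this bird r over the other 15 was 0.974. This bird and the pairs below were singled out after their values were seen, and no test bears on a single liver.

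Set beside diet E replicate 2, diet F replicate 2 was lower in most genes of both classes, to a degree that differed by role. The mitotic kinases, cyclins and checkpoint genes differed by a median of -0.10, with 4 genes higher and 6 lower. They were mixed, from -0.71 (CDC25A) to 0.44 (CCNA1, a dim feature). Origin licensing genes differed by -0.99, a 1.98-fold lower median, and all 11 were lower, MCM6 by most at -1.61. Helicase activation genes differed by -0.83, polymerases and clamp loaders by -0.44, condensin and topoisomerase by -0.33 and the centromere genes by -0.47. All 28 replication genes were lower in diet F replicate 2, beside a median difference over all genes of 0.02. Diet E replicate 2 held the highest value of 20 of these genes and of 18 of the 33 mitosis genes, which fixed their direction. The mitosis genes differed by a median of -0.39, with 28 of 33 lower. These included 13 of 14 genes of the centromere role, CENPJ among them, and all 9 condensin and topoisomerase genes. The centromere exception was CENPI at 0.41, a gene whose features disagree: its other feature was highest in diet E replicate 2 (6.75). Against diet A replicate 4, kinases and cyclins differed by a median of -0.01 with 5 higher and 5 lower, from -0.19 (PLK4) to 0.24 (CCNA1). Origin licensing differed by -0.33, the furthest being MCM5 at -0.81. Helicase activation genes differed by -0.33, polymerases and clamp loaders by -0.25, and, among the mitosis roles, centromere and kinetochore genes by -0.25 (11 of 14 lower) and condensin and topoisomerase genes by -0.22 (7 of 9 lower).

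In every diet the mitosis score spread more between birds than the replication score. The SDs were 0.62 and 0.28 in diet A, 0.60 and 0.39 in diet E, 0.50 and 0.16 in diet F, and 0.68 and 0.35 in diet H. Diet F replicate 1 differed from replicate 2 by a median of -1.16 over the mitosis genes and -0.27 over the replication genes. The kinase and cyclin genes had a 4.12-fold lower median in replicate 1, with CDK1 furthest at -3.44, and CDC45 had the largest replication difference at -1.95. Diet E replicate 2 and diet H replicate 2, the 2 highest livers, had kinase and cyclin genes within 0.07 of each other at the median. Origin licensing was higher by 0.47 in the diet E bird, in 10 of 11 genes, with MCM3 at 1.02.

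Not every gene followed its class. Each was set against the score of the rest of its class, and r had a median of 0.72 for replication and 0.88 for mitosis, with 11 of 28 and 22 of 33 genes above 0.8. The closest were TOP2A, PLK4, NCAPG2 and CENPH, all at 0.97. CDC45 had r = 0.93 with the replication score and 0.98 with the mitosis score, and 18 of 28 replication genes were closer to their own class than to the other, against 26 of 33 mitosis genes. POLE, the catalytic subunit of the leading-strand polymerase, had r = 0.08, with its highest value (5.44) in diet F replicate 3 and its lowest (4.57) in diet H replicate 1. CCNA1 had r = -0.10 and CENPV, a centromere protein, -0.27, its highest value being 8.47 in diet H replicate 4.

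CENPI, an inner kinetochore protein, went furthest against its class, at r = -0.49, and here the features of the gene disagreed. The brighter feature, used by the rule, read 5.56, 5.74, 5.92 and 5.61 in the birds of diet A, 6.15, 5.24, 5.68 and 5.99 in those of diet E, 5.23, 5.65, 5.93 and 6.39 in those of diet F, and 5.91, 5.16, 6.38 and 6.30 in those of diet H, lowest in diet H replicate 2. The other CENPI feature was lowest in diet F replicate 1 (4.09), highest in diet E replicate 2 (6.75), and had r = 0.96 with the mitosis score. The 2 features had r = -0.35 with each other. CENPF, a protein of the outer kinetochore, showed a milder case: the used feature had r = 0.54 with its class and the dimmer one 0.96, with r = 0.57 between them. For NCAPH, a condensin I subunit, 3 further features had r of 0.95, 0.95 and 0.84 with the used one, the first 2 of them holding identical values. Which part of the transcript each feature reads was not tested.

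**Figure D4:**
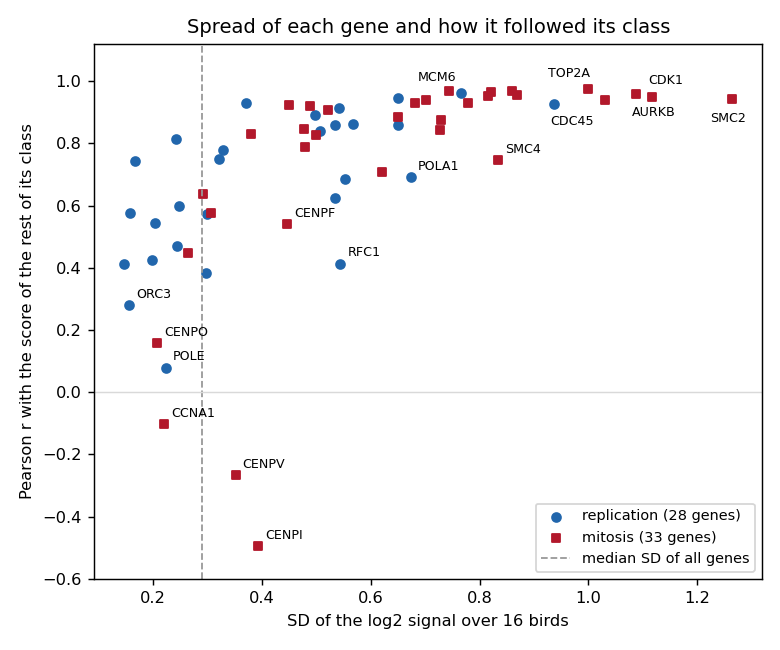
Pearson's r of each gene with the score of the rest of its class over 16 birds, against the SD of its log2 signal, with the median SD of all genes as a dashed line. Wide genes such as SMC2 (SD 1.26) lie near the top, and CENPI lies lowest at r = -0.49.

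The 4 genes matched by spelling kept near their means or followed other birds. AURKAIP1, a mitochondrial ribosome protein that binds Aurora A, ranged from 6.87 to 7.32, and MCM3AP, a nuclear export factor for mRNA, from 6.87 to 7.38. CDC73, a subunit of the PAF1 complex of transcription elongation, read 7.78 in diet H replicate 3 and 7.61 in diet H replicate 4, below every other bird (8.15 to 9.19). CDC73 and RFC1 were thus both lowest in those 2 livers.

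Genes of the same processes outside the symbol rule followed the same birds as lists, though not each gene did. Of 42 listed replication genes 32 were measured, and their median per bird had r = 0.98 with the replication score and 0.95 with the mitosis score. Of 54 listed mitosis genes 38 were measured, with r = 0.92 and 0.98, and 35 of the 38 were closer to the mitosis score, against 9 of the 32. Gene by gene, 18 of the 32 had r above 0.8 with the replication score and 31 of the 38 with the mitosis score. CHTF18 had r = -0.31 with the replication score, and ESPL1, DSN1 and ZW10 had -0.36, -0.13 and -0.13 with the mitosis score. MKI67, the proliferation marker Ki-67, ranged from 4.40 to 8.72 and RRM2, which makes the DNA building blocks, from 4.99 to 9.26. On these outside lists diet F replicate 2 scored 0.79 for mitosis (4th) and 0.07 for replication (6th). limma with Benjamini-Hochberg adjustment called 0 of these 70 genes in any diet comparison, beside 0% of all features in each.

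The brakes and G1 genes did not share the pattern as a list: 17 of 25 were measured, with a median SD of 0.29 and r = -0.23 and -0.16 with the replication and mitosis scores. RBL1, a pocket protein related to RB1, had r = 0.91 and 0.85, and WEE1, the kinase that holds CDK1 inactive, 0.84 and 0.81. CDKN1A, an inhibitor of cyclin-dependent kinases, ranged from 5.93 to 7.30 with its highest value in diet H replicate 3. RBL1 was highest in diet E replicate 2 and WEE1 in diet H replicate 2, while CDKN1B, another inhibitor, stayed between 8.50 and 8.92. Among the 11463 genes outside the list, 105 (0.916%) had r above 0.8 with the replication score and 110 (0.960%) with the mitosis score. The most alike to replication were BRCA1 (0.958), ZNF367, DCK2, RRM2, KNTC1, RTKN2, DNA2 and BORA (0.937), and to mitosis KPNA2 (0.971), ECT2, FAM72A, TPX2, RRM2, NEK2, KNTC1 and KIF11 (0.959).

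Markers of other cell types of liver were set beside the scores, as medians per bird. Hepatocyte markers stayed within -0.12 and 0.07 and had r = -0.04 with the replication and -0.03 with the mitosis score. T and NK cell markers had r = 0.22 and 0.26. All 15 measured of 21 had means above the dim mark, none was at 0, and their summed signal ran from 10.19 to 10.39 on the log2 scale for diet A, 10.29 to 10.42 for diet E, 10.19 to 10.87 for diet F and 10.42 to 11.16 for diet H. They were highest in diet H replicate 2 (0.58), while the other 3 livers with high mitosis scores had -0.06 (diet E replicate 2), -0.20 (diet A replicate 4) and 0.04 (diet F replicate 2). Bile duct markers, 11 of 17 measured, were highest in diet E replicate 2 (0.37), with -0.09, -0.12 and -0.04 in diet H replicate 2, diet A replicate 4 and diet F replicate 2, and had r = 0.23 and 0.25. Their part in the scores was not tested.

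For the other lists the correlations were weak to moderate. With the replication and mitosis scores r was 0.31 and 0.35 for macrophage markers, -0.32 and -0.25 for B cell, -0.36 and -0.30 for red blood cell, -0.21 and -0.30 for endothelium, and -0.22 and -0.18 for stellate cell and fibroblast markers. Cytosolic ribosomal protein genes had r = -0.45 with both and their highest medians in diet H replicates 3 and 4. After the dependence of each array on the genomic span of the gene had been removed, r between the replication and mitosis scores was 0.915.

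The diets were compared in pairs and together, to ask whether any feed moved these genes. limma with Benjamini-Hochberg adjustment over 20804 features called 0 of the 65 genes in each of the 6 comparisons and in the F test over the 4 diets, beside 0% of all features in each. At an unadjusted p under 0.05 stood 2 of 65 genes in diet E minus diet A (2.03% of all features), 1 in F minus A (1.68%), 1 in H minus A (8.21%), 0 in E minus F (1.35%), 0 in H minus E (2.72%), 1 in H minus F (2.6%) and 0 in the F test (2.13%). The smallest adjusted p of any of the 65 in limma was 1 for E minus A and E minus F, 0.993 for F minus A, 0.521 for H minus A, 0.942 for H minus E, 0.971 for H minus F and 0.984 for the F test. The 6 comparisons share diets, so their values are not independent of each other.

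Mean replication scores were 0.003 ± 0.28 for diet A, 0.15 ± 0.39 for diet E, -0.08 ± 0.16 for diet F and -0.05 ± 0.35 for diet H (SD, n = 4 each). Mean mitosis scores were -0.04 ± 0.62, 0.20 ± 0.60, -0.04 ± 0.50 and -0.10 ± 0.68 in the same order. The spread within diets (pooled SD 0.31 and 0.60) exceeded that between the 4 diet means (SD 0.10 and 0.13) in both classes. Means of 4 birds vary less than single birds, so these SDs are unlike measures and do not show that the diets were alike. In diet E minus diet A the median difference was 0.21 for replication, with 20 of 28 genes higher, and 0.25 for mitosis, with 30 of 33 higher, beside 0.009 for all genes. Without diet E replicate 2 these medians were 0.02 and -0.03. Among the birds with title numbers up to 25 they were 0.58 and 0.86, and among those above 25 they were -0.21 and -0.43, with 2 birds per diet in each. In diet E minus diet F they were 0.18 (23 of 28 higher) and 0.27 (29 of 33 higher), and 0.01 and 0.02 without that bird.

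Diet H minus diet E gave -0.22 for replication with 5 of 28 genes higher and -0.27 for mitosis with 7 of 33 higher, and -0.01 and 0.01 without diet E replicate 2. Diet F minus diet A had medians of -0.07 and 0.01, which were -0.19 for replication without diet A replicate 2 and -0.26 for mitosis without diet F replicate 2. Diet H minus diet A had -0.02 and -0.06, and diet H minus diet F 0.01 and 0.05. Without diet H replicate 2 the mitosis medians were -0.37 for diet H minus diet A and -0.33 for diet H minus diet F, and without diet A replicate 4 the first was 0.20. With diet H replicates 3 and 4 both left out, diet H minus diet A was 0.13 for replication and 0.20 for mitosis, diet H minus diet F 0.21 and 0.35, and diet H minus diet E -0.03 and 0.07. Leaving out 1 or 2 birds thus changed the size of these medians and, in several comparisons, their sign.

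**Figure D5:**
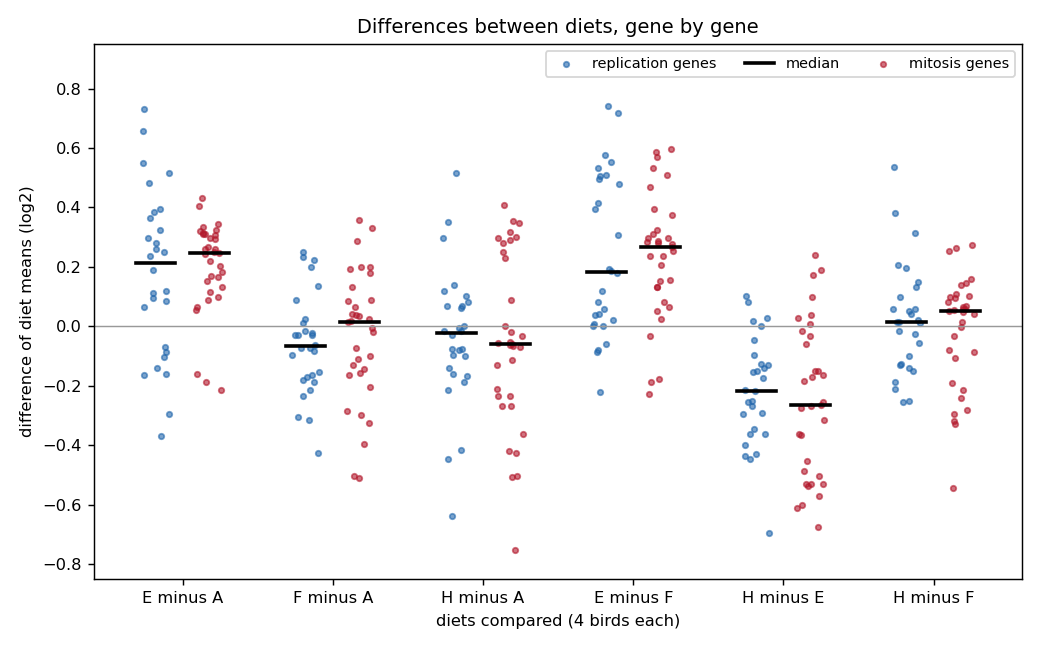
Log2 difference of each gene for the 6 pairs of diets, with replication and mitosis genes apart, the median of each class as a black bar and a line at 0. In diet E minus diet A the medians are 0.21 and 0.25, and no gene passed the adjusted threshold in any pair.

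GINS1, a subunit of the GINS complex, was the member furthest apart in diet E minus diet A, at 1.66-fold. It read 4.91, 4.90, 4.90 and 5.19 in the birds of diet A, 5.92, 6.51, 5.08 and 5.33 in those of diet E, 4.65, 5.37, 5.47 and 5.22 in those of diet F, and 4.61, 6.07, 5.36 and 5.93 in those of diet H. Diet A was tight and low, and 3 of 4 birds of diet E lay above all of diet A. Without diet E replicate 2 the log2 difference between diets E and A was 0.47, against 0.73 with it. ESCO2, which acetylates cohesin behind the fork, read 5.63, 5.26, 5.71 and 5.86 in the birds of diet A, 5.97, 6.30, 5.83 and 5.93 in those of diet E, 5.53, 5.66, 6.03 and 5.59 in those of diet F, and 5.53, 5.71, 5.96 and 5.81 in those of diet H, with differences of 0.40 ± 0.17 in E minus A, 0.31 ± 0.17 in E minus F and -0.26 ± 0.17 in H minus E (log2 ± standard error, limma). The last was -0.16 without diet E replicate 2 and -0.39 without diet H replicates 3 and 4. MCM2 in E minus F differed by 0.74 ± 0.41, by 0.38 without diet E replicate 2 and by 0.44 without diet F replicate 1. None of these passed the adjusted threshold.

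ORC2, a subunit of the recognition complex, differed by -0.32 ± 0.20 in diet F minus diet A and -0.45 ± 0.20 in diet H minus diet A, with 3 of 4 birds of each below all birds of diet A. Its means were 6.31 ± 0.12 for diet A, 6.02 ± 0.34 for diet E, 5.996 ± 0.28 for diet F and 5.86 ± 0.31 for diet H (SD, n = 4). CENPO differed by 0.29 ± 0.16 in H minus A and 0.27 ± 0.16 in H minus F, and by 0.08 and 0.06 without diet H replicates 3 and 4. ORC2 in H minus A differed by -0.25 without these 2 birds. CENPQ, an inner kinetochore protein, differed by -0.53 ± 0.32 in H minus E, with 3 birds of diet H below all of diet E and 1 above them. It differed by -0.87 without diet H replicate 2 and by -0.14 without diet H replicates 3 and 4.

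Groups of 4 birds that did not overlap were rare, in numbers close to the share over all features. In diet E minus diet A this held for POLE, higher in diet E (1 of 65 genes, beside 2.7% of all features). In diet F minus diet A it held for POLE and CCNA1, both higher in diet F (2 of 65, beside 1.84%), and in diet H minus diet F for CCNA1 and MCM10, both lower in diet H (2 of 65, beside 1.14%). No gene did so in H minus A (2.14%), E minus F (1.15%) or H minus E (1.03%). The gaps of CCNA1 and MCM10 were narrow. For CCNA1 the lowest bird of diet F read 2.699, and the highest of diets A and H read 2.691 and 2.687. For MCM10 the lowest bird of diet F read 5.349 and the highest of diet H 5.342. CCNA1 read 2.55 ± 0.24 for diet A, 2.70 ± 0.19 for diet E, 2.87 ± 0.13 for diet F and 2.55 ± 0.19 for diet H (SD, n = 4), all under the mark for dim features, and F minus A was 0.33 with all birds and 0.21 without diet A replicate 1. MCM10, a fork assembly factor named only for this count, read 5.49 ± 0.13 in diet F and 5.30 ± 0.05 in diet H.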

How the data were processed

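Liver RNA of 16 broilers, 4 per diet, was measured on 1-colour arrays. The authors deposited log2 values for 20804 features, as their range of 0.93 to 14.63 shows. Per the submitters' processing notes GCOS 1.1.1 was used, with background correction and normalization not given in the sources. Of the features 12300 carry 1 symbol in the platform annotation, and a gene was read from its feature with the highest mean. Apart from this choice, the mark for dim features and the summed marker signals, levels of different features were not compared.

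Each diet had its own mean in a limma 3.58.1 fit (R 4.3.3, Python 3.11.15 for tables) to all arrays, with two-sided tests and Benjamini-Hochberg adjustment over all features at 0.05. The procedure was tested on simulated data. Replicates were numbered in accession order. The p-values set differences of diet means against the spread between birds within diets. The labels do not say that birds came from separate pens. If birds of a diet shared a pen, they were not independent, and pen and diet could not be told apart.

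The genes, their roles, the lists of other replication, mitosis and brake genes, and the marker lists were chosen with earlier results of these data known. Named with values are, per role, the 2 widest genes and the narrowest, per comparison the 2 with the smallest p (3 for the F test), the 4 lowest and 4 highest correlations with their class, the 4 matched by spelling, and the 8 outside genes most alike to each score. Others named (such as MCM3, MCM4, MCM5, MCM10, ORC1, CCNE2, RFC2, RFC3, SMC4, CENPF, CENPJ, NCAPH, MKI67, CDKN1A, CDKN1B, RBL1 and WEE1) were chosen after their values were seen. Alternatives were a filter on dim features, quantile normalization, the feature with the widest SD, limma-trend, array weights, fits to 2 diets, other scores, title number blocks and leaving out birds. No sequence is printed, since no table with them was used here.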

Additional observations from a re-analysis of the deposited data

Results flagged for a closer look

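In 132 groups of 4 birds (the named genes and both scores in each diet), 1 bird stood far from its 3 diet mates in 6 groups. Chance flags about 1 in 20 such groups. Diet H replicate 2 did so for 3 mitosis genes: CENPL at 6.58, where the other birds of diet H had 4.23 to 4.54, PLK4 at 6.54 against 4.23 to 4.60, and CENPQ at 7.21 against 5.69 to 5.94. Diet H replicate 1 was low for NCAPH2, at 5.42 against 6.05 to 6.17. In diet A, replicate 1 was low for CCNA1, at 2.19 against 2.63 to 2.69, a feature under the mark for dim features, and replicate 4 was high for GINS1, at 5.19 against 4.90 to 4.91.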

How the results depend on the processing

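The correlation between the replication and mitosis scores kept its sign under every alternative run, between 0.858 (8 core genes per class) and 0.974 (without diet F replicate 2). Counts of features called stayed at 0 in limma except with array weights, which called 1 feature in diet E minus diet A. Counts at an unadjusted p under 0.05 moved more: diet H minus diet A had 1708 features, 6291 without diet H replicate 2, 3635 with array weights, 534 without diet H replicate 3 and 468 without diet H replicates 3 and 4, and over the alternatives diet E minus diet A ranged from 307 to 1280. Splitting the birds by title number moved diet E minus diet A most. Among numbers up to 25 the median was 0.58 for replication and 0.86 for mitosis, and above 25 it was -0.21 and -0.43, with 2 birds per diet in each. The split placed diet E replicate 2 (mitosis score 1.03) in the lower block and diet A replicate 4 (0.79) in the upper one. The cause was not tested. On the 8 core genes diet E minus diet F was 0.52 for replication. No paired analysis was possible because the replicate numbers were given in accession order and pair no birds. How far each feature lies above background is not given, so its part in the spread of dim genes such as CCNA1 and CENPJ was not tested.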

Other observations

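A few genes ran against the scores over the 16 birds, and they were looked up after the scores were known. With the replication score 5 genes of 11463 had r under -0.8. These were MIR1756A (-0.850, with a mean of 3.56 under the mark for dim features), MIR1644 (-0.819), LOC425470 (-0.808), FABP1 (-0.805) and FICD (-0.804). FABP1, the liver fatty acid binding protein, had values from 9.70 to 11.76. With the mitosis score there were 2 such genes, PANX2, a pannexin channel, at -0.82 and GRM4, a glutamate receptor, at -0.81, both with means under the mark for dim features (4.12 and 4.30). Diet H replicates 3 and 4, which share the array features named above, differed from each other in these genes: replicate 3 was higher in 26 of 33 mitosis genes (median 0.32) and 22 of 28 replication genes (median 0.24), with ORC1 at 0.92, and GINS1 at -0.58.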
